A study of Mus musculus with 3 samples.

Results

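Cell cycle genes were followed here as a set of 50 genes, of which 22 are active mainly in S phase and 28 in G2 and mitosis (G2/M). The members were given as gene symbols, and all 50 were present among the 31053 genes of the deposited matrices. The study prepared 1 droplet library per small intestinal segment (duodenum, jejunum and ileum) of 3 pooled male wild-type C57BL/6N mice aged 12 weeks, without treatment, after sorting live intestinal epithelial cells together with the immune cells of the epithelium. Since the 3 libraries came from segments of the same pooled animals and each segment had 1 library, segments were described without a test, and p-values between cell classes measured only the spread between these libraries. Reads were counted as unique molecular identifiers (UMIs), so that 1 UMI stands for 1 captured mRNA molecule, and a level is given as UMIs of a gene or a set per 10000 UMIs of the same cells. As a UMI marks 1 captured 3′ end, levels were not divided by gene length.

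Before a cell divides, origins of replication are licensed by loading the Mcm helicase, E2F factors switch on the genes for nucleotide supply and DNA synthesis, and DNA is copied in S phase. Genes for the mitotic kinases, the spindle, the kinetochore and cytokinesis are switched on later and are read most in G2 and mitosis, after which the anaphase-promoting complex destroys several of their proteins. In the small intestine division takes place in the crypts, in stem cells and in the transit-amplifying cells above them, while enterocytes, goblet cells and tuft cells of the villus have left the cell cycle.

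Of 27235 barcodes, 16686 passed the filters (4255, 4360 and 8071 in duodenum, jejunum and ileum), with a median of 12424, 11737 and 5536 UMIs per cell, respectively. Cells were clustered without the cell cycle genes and named from markers that hold none of them, which gave 213 ISC/proliferating cells (ISC, intestinal stem cells), 10577 enterocytes, 1141 early enterocytes, 750 goblet cells, 299 tuft cells, 171 enteroendocrine cells (EECs), 24 Paneth cells, 1229 T cells, 612 B cells, 88 IgA B cells, 92 macrophages/monocytes and 104 dendritic cells, while 1386 cells were left unnamed. All 10 markers of the ISC/proliferating list, among them Olfm4 and Lgr5, were detected in at least 10% of the cells of that class. Of the kept barcodes, 4 were shared between duodenum and jejunum, 5 between duodenum and ileum and 12 between jejunum and ileum.

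The sequences before the members' starts are shown first, because the members were divided by phase and the letters known from cell cycle promoters can be read in them. In RefSeq windows of 250 bases before to 50 bases after a transcript start (GRCm38.p6), 44 of the 50 members had a window. None was at hand for Aurkb, Ccna2, Ccne2, Gins2, Mcm4 and Tpx2. Letters of an E2F site (TTTCCCGC, TTTCGCGC, TTTGCCGC or TTTGGCGC, on either strand) were found in 9 of the 22 windows of S-phase members (40.9%), in 1 of the 25 windows of G2/M members (4%) and in 2.26% of all 32851 windows. Letters of a cell cycle homology region (CHR; TTTGAA or TTCGAA, on either strand) were found in 18.2% of the S-phase windows, in 72% of the G2/M windows and in 19.2% of all windows. A CCAAT box (CCAAT, on either strand) stood together with a CHR in 13.6%, 60% and 7.52%, respectively. S-phase windows thus held E2F letters more often than the windows of all genes, and G2/M windows held CHR letters more often, as a description with no test. CCAAT boxes alone were frequent in both phases, in 63.6% of S-phase, 72% of G2/M and 37.4% of all windows. The member of each phase with the most motif letters is printed, Top2a and Mcm7, followed by the next of each phase, Cdk1 and Mcm3, which were added after the counts of letters were seen. Capitals mark the letters of the 3 motifs, some of which overlap.
Top2a, chr11:99024140-99024439, minus strand: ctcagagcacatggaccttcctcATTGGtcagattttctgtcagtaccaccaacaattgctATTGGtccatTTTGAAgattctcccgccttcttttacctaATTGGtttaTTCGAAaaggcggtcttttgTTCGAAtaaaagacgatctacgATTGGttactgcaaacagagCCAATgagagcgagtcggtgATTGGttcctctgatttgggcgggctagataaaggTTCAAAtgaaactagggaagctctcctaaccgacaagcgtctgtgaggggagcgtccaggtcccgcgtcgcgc
Cdk1, chr10:69352863-69353162, minus strand: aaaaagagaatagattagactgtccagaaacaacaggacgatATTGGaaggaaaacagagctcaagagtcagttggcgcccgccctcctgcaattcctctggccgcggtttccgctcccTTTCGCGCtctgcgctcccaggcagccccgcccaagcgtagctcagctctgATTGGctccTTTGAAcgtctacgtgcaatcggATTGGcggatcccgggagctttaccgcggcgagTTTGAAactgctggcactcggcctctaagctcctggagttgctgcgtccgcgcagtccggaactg
Mcm7, chr5:138171834-138172133, minus strand: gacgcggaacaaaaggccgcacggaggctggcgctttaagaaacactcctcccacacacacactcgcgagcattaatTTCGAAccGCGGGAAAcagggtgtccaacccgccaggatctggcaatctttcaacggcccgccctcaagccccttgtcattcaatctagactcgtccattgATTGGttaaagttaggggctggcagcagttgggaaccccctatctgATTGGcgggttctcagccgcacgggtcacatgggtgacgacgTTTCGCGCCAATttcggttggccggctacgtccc
Mcm3, chr1:20820263-20820562, minus strand: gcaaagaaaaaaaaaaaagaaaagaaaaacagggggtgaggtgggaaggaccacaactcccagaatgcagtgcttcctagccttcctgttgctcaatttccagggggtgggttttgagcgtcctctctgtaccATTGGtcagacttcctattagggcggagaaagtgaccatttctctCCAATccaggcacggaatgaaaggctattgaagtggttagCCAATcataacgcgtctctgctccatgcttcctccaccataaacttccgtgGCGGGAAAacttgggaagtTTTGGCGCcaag
The window of Top2a, which codes for the topoisomerase that untangles sister chromatids, held 4 CHR and 6 CCAAT matches and no E2F match. The window of Cdk1 held 1 E2F, 2 CHR and 3 CCAAT matches. The windows of the helicase genes held 2 E2F, 1 CHR and 3 CCAAT matches (Mcm7) and 2 E2F and 3 CCAAT matches (Mcm3). A match is a run of letters and not a bound site.

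ISC/proliferating cells stood at 15.6 S-phase UMIs per 10000 UMIs (95% Poisson interval 15.2 to 16) and at 21.0 G2/M UMIs (20.6 to 21.4) when the 3 libraries were summed. By library, the S-phase level was 13.8, 17.6 and 16.5 in duodenum, jejunum and ileum, and the G2/M level was 23.0, 16.3 and 21.6, respectively. Enterocytes stood at 1.16 S-phase UMIs (1.14 to 1.18) and at 0.265 G2/M UMIs (0.255 to 0.274), and each library's ISC/proliferating cells lay above each library's enterocytes in both phases. These intervals cover counting error only. The class made up 1.28% of the kept cells and held 19.6% of their S-phase UMIs and 33.5% of their G2/M UMIs, whereas the enterocytes, 63.4% of the cells, held 40.4% and 11.7%, respectively. Most of the enterocyte S-phase level of 1.16 came from Slbp (0.281), Ccne2 (0.189), Mcm2 (0.174) and Pcna (0.173 UMIs per 10000). The kept cells carried 68.4% of the S-phase UMIs and 45.1% of the G2/M UMIs of the 3 matrices, and barcodes above the upper limits carried 20.0% and 49.4%. The ratio of the G2/M to the S-phase level in ISC/proliferating cells was 1.68, 0.929 and 1.31 from duodenum to ileum, and 0.228 in the summed enterocytes. When cell cycle genes took part in the clustering, 83 cells formed the class, with 11.2 S-phase and 4.83 G2/M UMIs per 10000. The cluster that held them was split further. Its other parts were 87 cells with Hist1h2ap as leading gene, named early enterocytes, 54 unnamed cells and 24 Paneth cells.

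**Figure D1:**
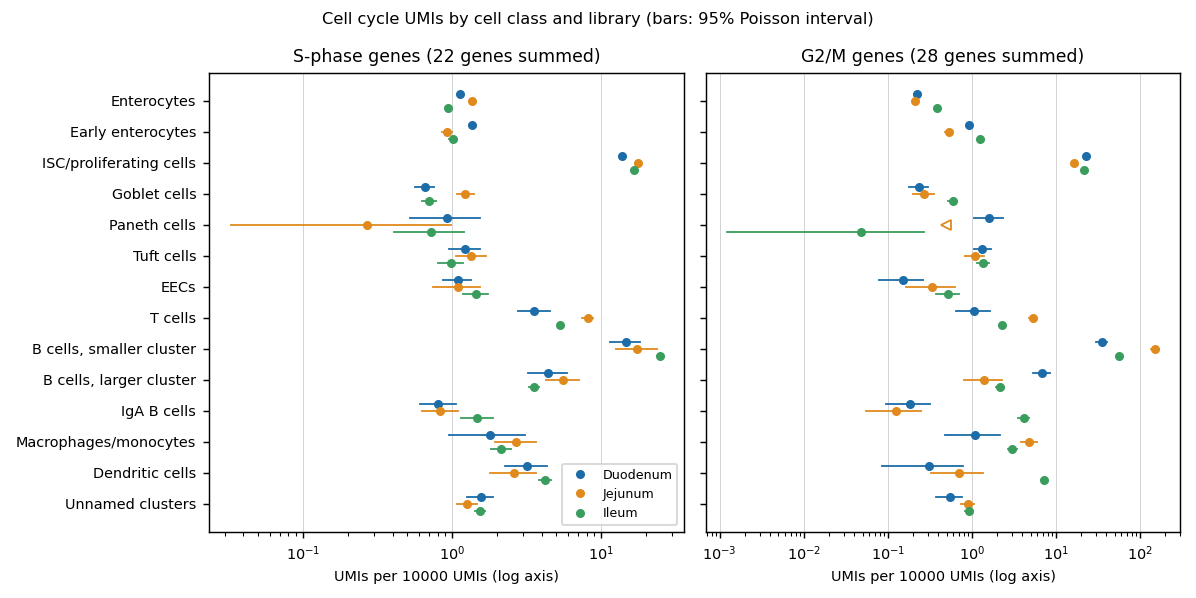
Summed level of the 22 S-phase genes (left) and the 28 G2/M genes (right) in UMIs per 10000 UMIs on log axes. Each point is 1 cell class and library with its 95% Poisson interval. An open triangle marks the upper end of this interval where no UMI was counted. ISC/proliferating cells and the smaller B-cell cluster lie above the other classes in both phases, and T cells lie between them and the enterocytes.

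Among the other classes, the highest levels were those of the smaller of 2 B-cell clusters (85 cells), with 24.1 S-phase UMIs (23.2 to 25.0) and 57.3 G2/M UMIs per 10000 (56.0 to 58.7). This cluster was 0.509% of the kept cells and held 26.6% of their G2/M UMIs. The other B cells stood at 3.72 and 2.36, T cells at 5.51 and 2.54, dendritic cells at 3.98 and 6.06, and macrophages/monocytes at 2.196 and 3.18 S-phase and G2/M UMIs per 10000, respectively. The G2/M level of dendritic cells was 0.310, 0.707 and 7.20 in the 3 libraries, so that the summed value rested on the ileum. Of the G2/M UMIs of macrophages/monocytes 9 cells held 77.6%, and the level without them was 0.773. Early enterocytes (1.11 and 0.924), goblet cells (0.794 and 0.429), tuft cells (1.13 and 1.29), EECs (1.24 and 0.338) and Paneth cells (0.724 and 0.611) stayed at or below 1.29 in both phases. S-phase levels of these epithelial classes thus lay between 0.724 and 1.24, on either side of the 1.16 of enterocytes, while their summed G2/M levels lay above the 0.265 of enterocytes. By library this did not hold for Paneth cells, in which 26 of 27 G2/M UMIs came from 7 duodenal cells, nor for duodenal EECs (0.152 against 0.222 in duodenal enterocytes). Among cells of at least 2000 UMIs, 68 of 676 goblet cells held 67.3% of the G2/M UMIs of their class. Without the 10% of cells with the highest G2/M level, goblet cells stood at 0.146 and enterocytes at 0.147. Early enterocytes then stood at 0.430, tuft cells at 0.966 and EECs at 0.221.

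In ISC/proliferating cells the S-phase UMIs were led by the helicase subunits Mcm7 and Mcm6, by Slbp, which binds the stem-loop of histone mRNAs, by Tyms, the thymidylate synthase, and by Rrm1, the large subunit of ribonucleotide reductase. Mcm7 stood at 1.09, 1.62 and 1.499 UMIs per 10000 in duodenum, jejunum and ileum, against 0.0517, 0.0403 and 0.0925 in enterocytes. Slbp had 1.24, 1.52 and 1.37 in ISC/proliferating cells and 0.265, 0.266 and 0.320 in enterocytes. Mcm6 had 1.03, 1.67 and 1.45 against 0.0703, 0.0202 and 0.0235. All 3 genes were thus higher in the ISC/proliferating cells of every library than in the enterocytes of any library. Tyms had 1.29, 0.889 and 1.57 UMIs per 10000 in ISC/proliferating cells and 0.0209, 0.00736 and 0.0125 in enterocytes, and Rrm1 had 0.875, 0.910 and 0.890 against 0.0388, 0.0173 and 0.0238. Tyms varied more between the libraries than Rrm1, which was nearly level along the intestine.

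The G2/M UMIs of ISC/proliferating cells were led by Top2a, by Ube2c, the ubiquitin-conjugating enzyme of the anaphase-promoting complex, by Mki67, which coats mitotic chromosomes, by Cks2, a small subunit bound to Cdk1, and by Birc5 (survivin), a member of the chromosomal passenger complex. Top2a stood at 2.82, 2.42 and 2.58 UMIs per 10000 in duodenum, jejunum and ileum, against 0.00706, 0.00575 and 0.0217 in enterocytes. Ube2c had 2.96, 1.43 and 2.34 against 0.0126, 0.0147 and 0.0192, and Mki67 had 2.19, 1.65 and 1.57 against 0.00806, 0.00529 and 0.0159. The jejunum was thus lowest for Ube2c, and the duodenum highest for all 3 genes. Cks2 had 1.87, 1.25 and 1.77 UMIs per 10000 against 0.0733, 0.0752 and 0.156 in enterocytes, and Birc5 had 1.29, 0.973 and 1.53 against 0.0282, 0.0253 and 0.0256. Cks2 was the G2/M member with the highest level in enterocytes.

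By class, 18 of the 22 S-phase members had their highest level in ISC/proliferating cells, 3 in B cells taken as 1 class, and 1, Ccne2, in enterocytes. Of the 28 G2/M members, 19 were highest in B cells and 9 in ISC/proliferating cells. The map of levels shows the ISC/proliferating row and the row of the smaller B-cell cluster standing out over nearly all columns, and Slbp as the S-phase member found throughout.

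**Figure D2:**
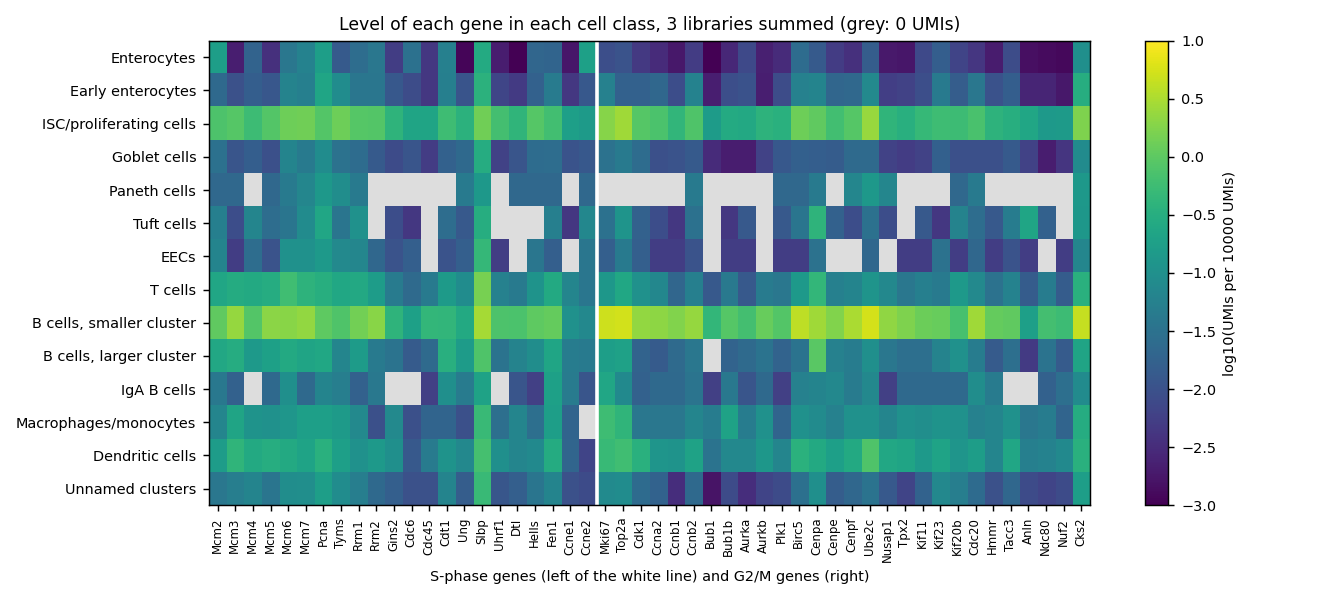
Level of each of the 50 genes (columns) in each cell class (rows), the 3 libraries summed, as log10 of the UMIs per 10000 UMIs; grey cells held no UMI. The rows of ISC/proliferating cells and of the smaller B-cell cluster are bright over nearly all genes, Mcm2 and Ccne2 are the brightest columns of the enterocyte row besides Slbp and Pcna, and 9 genes are grey in tuft cells.

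The question of which cell cycle genes separate the ISC/proliferating class from enterocytes was tested with edgeR's quasi-likelihood test on UMIs summed by class and library. All 50 members passed the filter on low counts, and 49 were higher in ISC/proliferating cells than in enterocytes at a Benjamini-Hochberg adjusted p under 0.05, namely 21 of 22 S-phase and 28 of 28 G2/M members, and 1 was lower. Among all 12978 genes tested, 28.4% were called higher and 30.7% lower. The median log2 fold change was 4.44 for S-phase members and 6.34 for G2/M members, beside -0.17 for all genes tested. The count lay between 40 and 49 in all alternatives tried.

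The largest differences among S-phase members were those of Dtl, a substrate receptor of the ubiquitin ligase that clears the licensing factor Cdt1, of Mcm3 and of Uhrf1, which brings maintenance DNA methylation to replicated DNA. Dtl had 55, 51 and 65 UMIs in the ISC/proliferating cells of duodenum, jejunum and ileum and 2, 5 and 2 UMIs in all their enterocytes, which gave 7.95 as log2 fold change, with a standard error of 0.82 (adjusted p = 2.68e-09). Mcm3 had 118, 107 and 143 UMIs against 4, 3 and 18 (log2 fold change 7.78, standard error 0.62), and Uhrf1 had 86, 79 and 104 against 7, 6 and 11 (7.40, standard error 0.63). These genes were thus nearly absent from enterocytes, although that class held 115930630 UMIs in all and the ISC/proliferating class 4174939. Among G2/M members the largest log2 fold changes were those of Top2a with 7.23 (standard error 0.63), of Cenpf, a kinetochore protein, with 7.07 (0.69), and of Ccna2 (cyclin A2) with 6.94 (0.57). Cenpf levels were 0.916, 0.607 and 1.02 UMIs per 10000 in ISC/proliferating cells and 0.00227, 0.00253 and 0.00641 in enterocytes. Ccna2 levels were 0.852, 0.513 and 0.709 against 0.00252, 0.00276 and 0.00427, so that neither gene overlapped between the classes.

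The smallest differences of called-higher members were those of Slbp (log2 fold change 1.496, standard error 0.23, adjusted p = 1.42e-06) and of Pcna, the sliding clamp of DNA polymerases (1.58, standard error 0.23, adjusted p = 6.00e-07). Pcna stood at 0.818, 1.14 and 0.683 UMIs per 10000 in ISC/proliferating cells and at 0.204, 0.182 and 0.123 in enterocytes. Both are thus S-phase members with a sizeable level in non-dividing cells. Among G2/M members the smallest log2 fold changes were those of Cks2 with 3.34 (standard error 0.30), of Aurka, the centrosomal kinase, with 4.08 (0.54), and of Tacc3, a spindle protein that Aurka phosphorylates, with 4.38 (0.46). Aurka levels in ISC/proliferating cells were 0.319, 0.105 and 0.288 UMIs per 10000, against 0.00958, 0.00667 and 0.00671 in enterocytes. Tacc3 levels were 0.342, 0.272 and 0.328 against 0.00832, 0.00874 and 0.00824, without overlap.

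Ccne2 (cyclin E2; chromosome 4, 11191351 to 11204779, plus strand, GRCm38), which drives entry into S phase together with Cdk2, was the 1 member called lower. Its levels were 0.0928, 0.282 and 0.141 UMIs per 10000 in ISC/proliferating cells (16, 27 and 21 UMIs) and 0.167, 0.229 and 0.164 in enterocytes (663, 996 and 537 UMIs). The 2 classes thus overlapped, with the jejunal ISC/proliferating cells highest. Its difference on the log2 scale, -1.003 with a standard error of 0.40, had an adjusted p of 0.0321. It was not called in 7 of 16 alternatives, with values from -1.77 to -0.21. In contrast, Ccne2 was lower in early enterocytes (-4.16, standard error 0.44, adjusted p = 1.74e-08), goblet cells (-3.94, standard error 0.51), T cells (-2.84, standard error 0.53) and tuft cells (-2.03, standard error 0.49) than in enterocytes, and these 4 calls were kept in all 16 alternatives. In early enterocytes the level was 0.0103, 0.0152 and 0.0134 UMIs per 10000, below that of the enterocytes of every library. Its relative Ccne1 (cyclin E1) rose in ISC/proliferating cells by 5.76 on the log2 scale (standard error 0.82). A gene on the other strand, Ints8, overlaps Ccne2 in the annotation, and its part in these counts was not tested.

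**Figure D3:**
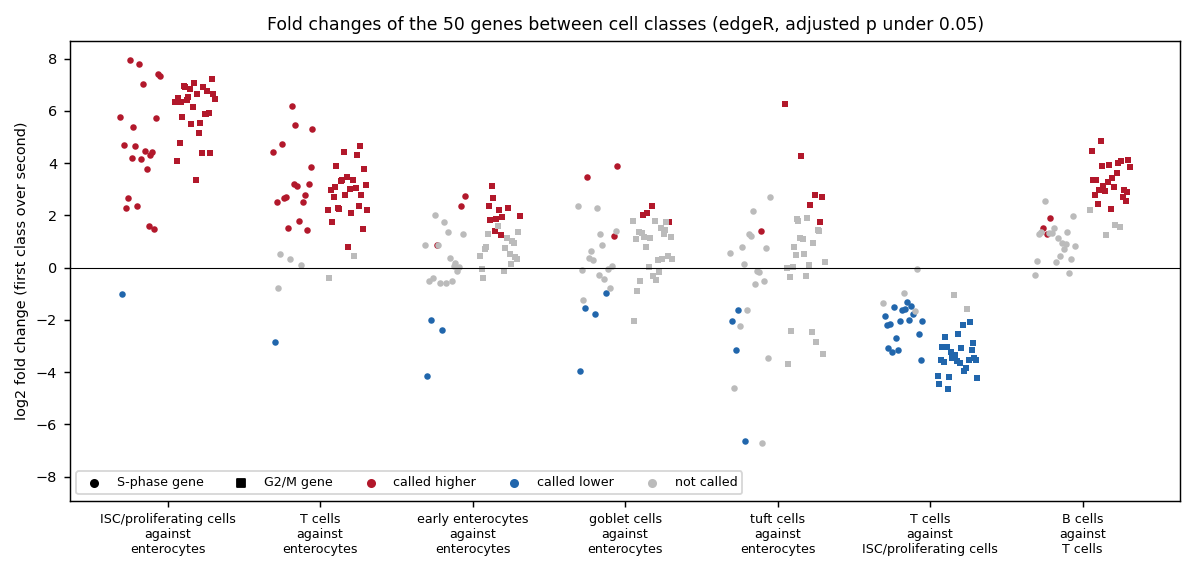
Log2 fold changes of the 50 genes in 7 comparisons of cell classes (first over second), circles for S-phase and squares for G2/M genes; red marks genes called higher and blue genes called lower at an adjusted p under 0.05 (edgeR), grey genes not called. In ISC/proliferating cells against enterocytes 49 points are red and 1 is blue, while 33 of the 50 points of early enterocytes are grey.

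The helicase subunits Mcm2, Mcm4 and Mcm5 rose in ISC/proliferating cells over enterocytes by log2 fold changes of 2.37, 4.16 and 7.03, and the licensing and firing factors Cdc6, Cdt1, Cdc45 and Gins2 by 2.28, 2.68, 4.69 and 5.40. Rrm2, the regulated subunit of ribonucleotide reductase, rose by 4.43, the flap endonuclease Fen1 by 4.18, the uracil glycosylase Ung by 7.34, and Hells, a chromatin remodeller, by 4.64. Among G2/M members, the cyclin-dependent kinase Cdk1 rose by 6.82, its cyclins Ccnb1 and Ccnb2 by 6.91 and 6.43, the kinases Aurkb and Plk1 by 6.499 and 5.93, and the passenger protein Birc5 by 4.78. Kinetochore and checkpoint members (Bub1, Bub1b, Cenpa, Cenpe, Ndc80 and Nuf2) rose by 5.48 to 6.33, the spindle and cytokinesis members Nusap1, Tpx2, Kif11, Kif23, Kif20b, Hmmr and Anln by 4.39 to 6.76, and Cdc20, the activator of the anaphase-promoting complex, by 6.53.

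Single cells were compared after random thinning of their counts to 2000 UMIs, and a phase was counted as seen where a cell kept at least 2 UMIs of its genes. Of the 202 ISC/proliferating cells that were deep enough, 36.6% showed both phases, 25.2% only S phase, 21.3% only G2/M and 16.8% neither (exact binomial interval of the last 12.0 to 22.7%). Cells that showed neither phase numbered 14 of 72 in the duodenum, 4 of 50 in the jejunum and 16 of 80 in the ileum. Of 10281 enterocytes, 2.60% showed S phase, 0.233% showed G2/M, and 97.2% showed neither. A Mki67 UMI was present in 24.3% of thinned ISC/proliferating cells and in 0.233% of thinned enterocytes (63.8% and 0.870% before thinning, at median depths of 17880 and 9819 UMIs), and the part of free RNA in these shares was not tested. In the smaller B-cell cluster 45.9% of the 85 cells showed both phases and 20% neither.

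**Figure D4:**
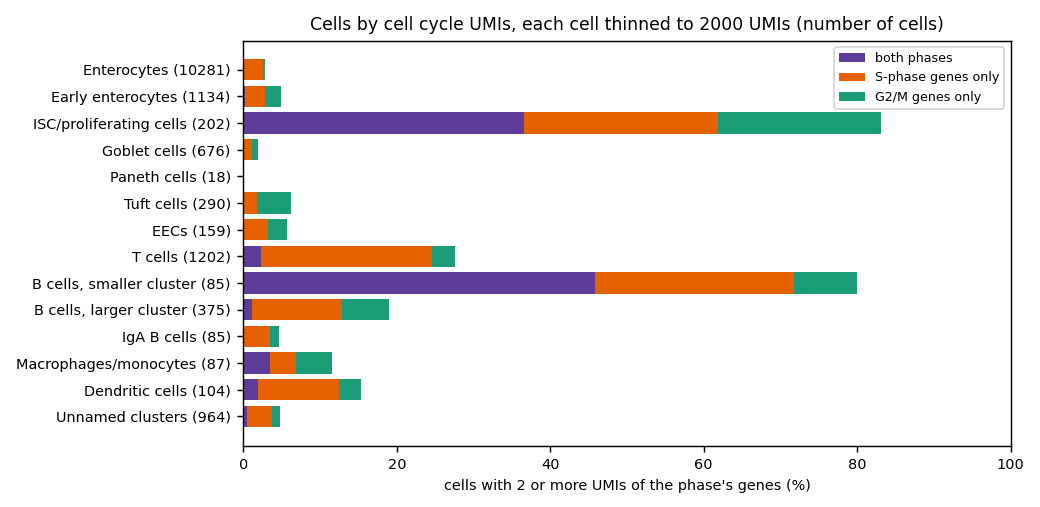
Share of cells (%) with 2 or more UMIs of S-phase genes only, of G2/M genes only or of both, at 2000 UMIs per cell; the number of cells is given beside each class. The bars leave out 16.8% of ISC/proliferating cells, 20% of the smaller B-cell cluster and 97.2% of enterocytes, which showed neither phase. Most T cells also showed neither phase, and 22.4% of them showed S phase only.

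Within ISC/proliferating cells, correlations between members from cell to cell were weak at the depth used. Over the 176 cells with at least 5000 UMIs, thinned to that depth, the median Pearson correlation was 0.13 for the 231 pairs of S-phase members (from -0.10 to 0.36), 0.25 for the 378 pairs of G2/M members (from -0.04 to 0.64) and -0.02 for the 616 mixed pairs (from -0.28 to 0.31), so that the ranges overlapped, and the summed phases correlated at 0.03. These values describe cells of 3 libraries that share depth and base composition, and no p is given. The closest pairs were Cenpa, the centromeric histone, with Cdc20 (0.64), and Ube2c with Hmmr, a spindle protein (0.62). In the smaller B-cell cluster (80 cells) the medians were 0.23, 0.40 and 0.06, and the summed phases correlated at 0.38. The 10% of ISC/proliferating cells with the most G2/M UMIs held 33.0% of the class's G2/M UMIs, against 69.2% in T cells and 47.6% in enterocytes.

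T cells carried S-phase more than G2/M transcripts. Their S-phase level was 3.55 UMIs per 10000 for the 35 duodenal, 8.09 for the 110 jejunal and 5.29 for the 1084 ileal cells, and their G2/M level was 1.06, 5.40 and 2.26, respectively, so that the jejunum was highest in both phases. Relative to enterocytes, 43 members were higher (17 S-phase and 26 G2/M) and 1, Ccne2, lower, beside 29.8% called higher and 31.8% called lower among all genes. The 6 members not called were Mcm2, Pcna, Cdc6, Cdt1, Aurka and Kif23. The largest log2 fold changes were those of Mcm3 with 6.18 (standard error 0.64), Mcm5 with 5.46 (0.59) and Ung with 5.31 (0.65). The number called higher fell to 28 without the jejunum library, to 25 of 35 members tested when only these 2 classes were fitted, and to 19 when cell cycle genes took part in the clustering, where 7 of the members turned in sign.

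Relative to ISC/proliferating cells, T cells were lower in 44 members (18 S-phase and 26 G2/M) and higher in none, beside 22.3% called lower and 19.4% called higher among all genes. At an unadjusted p under 0.05, 48 members differed. The median log2 fold change was -1.91 for S-phase and -3.45 for G2/M members, beside -0.05 for all genes. Slbp differed least (log2 fold change -0.04, standard error 0.24, adjusted p = 1.00), and its levels in T cells, 1.17, 1.72 and 1.52 UMIs per 10000, overlapped those in ISC/proliferating cells. Mcm4, Rrm2, Ccne1, Cenpa and Ndc80, an outer kinetochore protein, were not called either, with log2 fold changes from -1.66 to -0.96. Of the thinned T cells, 22.4% showed only S phase, 2.91% only G2/M and 2.25% both. The count of lower members was 30 without the ileum library and 29 when cell cycle genes took part in the clustering, in which case 83 cells formed the ISC/proliferating class. UMIs of the 13 enterocyte markers stood at 127 per 10000 in T cells, beside 914 in enterocytes and 51.2 in ISC/proliferating cells.

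Among T cells, the cluster led by Gzma (758 cells) stood at 6.06 S-phase and 3.03 G2/M UMIs per 10000, and the cluster with Cd8b1 (471 cells) at 4.38 and 1.53. The order held in the jejunum (9.41 against 3.93 for S phase) and the ileum (5.75 against 4.37) but not in the duodenum (2.61 against 6.36, from 23 and 12 cells). The order rested on few cells, since without the 10% of cells with the most UMIs of the phase the levels were 3.79 and 3.62 for S phase and 0.788 and 1.02 for G2/M in the clusters with Gzma and Cd8b1. Of the thinned cells 4.98% and 5.45% had at least 2 G2/M UMIs.

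B cells exceeded T cells in G2/M more than in S-phase members. Of the 50 members, 27 were higher in B cells (3 S-phase and 24 G2/M) and none lower, while 23 were not called, beside 5.81% called higher and 6.11% called lower among all genes. At an unadjusted p under 0.05, 40 members differed. The S-phase members called were Cdt1, Hells and Fen1, and the largest log2 fold changes were those of Ccnb1 with 4.84 (standard error 0.70), Aurka with 4.47 (0.83) and Tpx2, a spindle assembly factor, with 4.10 (0.72). Mki67 stood at 2.33, 3.38 and 1.82 UMIs per 10000 in the B cells of duodenum, jejunum and ileum, against 0, 0.341 and 0.112 in T cells, without overlap. These calls rested on the smaller B-cell cluster, of which 6 cells were duodenal, 1 was jejunal and 78 were ileal. Without it, 0 members were higher and 1, Slbp, was lower in B cells than in T cells (log2 fold change -0.95, standard error 0.27, adjusted p = 0.0173), while 4.10% and 4.65% of the 12866 genes tested were called higher and lower. In that fit 6 members had an unadjusted p under 0.05, and the edgeR median log2 fold change was -0.77 for G2/M members. Without the ileum library 9 members were called.

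In the smaller B-cell cluster, Mki67 stood at 4.91, Top2a at 5.27, Cks2 at 4.43, Slbp at 2.94 and Cenpa at 2.69 UMIs per 10000. In the other B cells the same genes stood at 0.176, 0.195, 0.219, 0.781 and 0.938, so that Slbp and Cenpa were the closest between the B-cell clusters.

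In early enterocytes most members were not called, and those called higher were mainly G2/M members. Of the 50, 14 were called higher (3 S-phase and 11 G2/M) and 3 lower, and 33 were not called, while 18.2% of all genes were called higher and 20.0% lower. The G2/M members called were Mki67, Cdk1, Ccna2, Ccnb1, Ccnb2, Cenpa, Cenpf, Ube2c, Cdc20, Hmmr and Cks2. Ccnb2 (cyclin B2) stood at 0.0692, 0.0480 and 0.0576 UMIs per 10000 in the early enterocytes of the 3 libraries and at 0.00353, 0.00483 and 0.00763 in enterocytes, which was 3.11 as a log2 fold change (standard error 0.41, adjusted p = 4.63e-07). Tyms, with 0.106, 0.0745 and 0.0792 against 0.0209, 0.00736 and 0.0125, differed by 2.36 on the log2 scale (standard error 0.35). Both genes were higher in each library's early enterocytes than in any enterocytes, yet far below their levels in ISC/proliferating cells. The lower members were Mcm2 (-2.38, standard error 0.60), Cdc6 (-2.01, standard error 0.56) and Ccne2. Cdc6 stood at 0.00620, 0.0114 and 0.00823 UMIs per 10000 in early enterocytes (6, 9 and 8 UMIs) and at 0.0134, 0.0492 and 0.0272 in enterocytes, without overlap. Mcm2 lost its call without the jejunum library (-0.56, adjusted p = 0.386), and Mcm2 and Cdc6 turned in sign when each cell was assigned singly by its markers. The number of members called higher was 9 without the duodenum or the jejunum library, 26 at a limit of 20% mitochondrial UMIs and 24 at a finer resolution. It was 45 under single assignment and 38 with cell cycle genes in the clustering. In the latter clustering the class included the 87 cells split from the cluster of the ISC/proliferating cells. How many of these 87 were ISC/proliferating cells in the main clustering was not tested.

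In goblet cells 7 members were higher than in enterocytes (Tyms, Ung, Dtl, Top2a, Cdk1, Ccnb1 and Cenpf) and 4 lower (Mcm2, Pcna, Cdt1 and Ccne2), beside 17.0% called higher and 20.8% called lower among all genes. The largest was Ung (log2 fold change 3.91, standard error 0.68), with 0, 6 and 16 UMIs in the goblet cells of the 3 libraries. Pcna stood at 0.0981, 0.1003 and 0.0770 UMIs per 10000 in goblet cells, below the enterocytes of every library (log2 fold change -0.96, standard error 0.26), and Cdt1 had 8, 7 and 2 UMIs (-1.54, standard error 0.49). The count of higher members ranged from 1 to 9 over the alternatives, with 2 without the jejunum library and 3 without the ileum library, and the goblet call of Mcm2 was lost without the jejunum library (log2 fold change -0.35).

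Tuft cells, chemosensory cells of the epithelium, were compared with enterocytes after their levels had been seen. In all, 7 members were higher, beside 21.8% of all genes, and 4 lower, beside 23.7%. Anln (anillin), a scaffold of the contractile ring, stood at 0.0355, 0.296 and 0.275 UMIs per 10000 in the tuft cells of duodenum, jejunum and ileum (2, 17 and 31 UMIs), against 0.000504, 0.00138 and 0.00275 in enterocytes (log2 fold change 6.25, standard error 0.73, adjusted p = 2.74e-08). Cenpa stood at 0.622, 0.314 and 0.346 against 0.0159, 0.00989 and 0.0150 (log2 fold change 4.28, standard error 0.48, adjusted p = 8.58e-09). Both kept the call in all 16 alternatives, whereas 3 members were called higher without the jejunum library, and neither gene overlapped between the classes. In the annotation another gene overlaps Anln on the same strand, and its part in these counts was not tested. The other higher members were Top2a with 2.72 (standard error 0.79), Ndc80 with 2.76, Kif20b with 2.38, Tacc3 with 1.75 and Rrm1 with 1.40. In tuft cells 9 members (Aurkb, Bub1, Cdc45, Dtl, Hells, Nuf2, Rrm2, Tpx2 and Uhrf1) had no UMI at all, among 2265680 UMIs, which allows at most 0.0132 UMIs per 10000 for each. This limit lies above the enterocyte levels of Bub1 (0.000863), Nuf2 (0.00121) and Cdc45 (0.00449). No difference from enterocytes was thus detectable for these genes at this depth. The enterocyte levels of Rrm2 (0.0386) and Hells (0.0210) lay above the limit, and Hells was among the 4 members called lower.

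Along the intestine, ISC/proliferating cells of the jejunum had the highest S-phase and the lowest G2/M level. The median log2 ratio of jejunum over duodenum was 0.54 for S-phase members and -0.41 for G2/M members, that of ileum over duodenum was 0.45 and -0.05, and that of ileum over jejunum was -0.15 and 0.43. In all, 7 differences of members passed 2-fold, with all 50 members compared in each pair of segments. They were Rrm2 between ileum and duodenum, Aurka and Nusap1 between ileum and jejunum, and Ccne2, Aurka, Ube2c and Nusap1 between jejunum and duodenum. Among all genes compared, 6.05% were past 2-fold higher and 3.26% lower for ileum against duodenum, 4.59% and 2.53% for ileum against jejunum, and 3.06% and 2.47% for jejunum against duodenum. Rrm2 stood at 1.21 UMIs per 10000 in the duodenum and 0.495 in the ileum (log2 ratio -1.28), and Aurka at 0.105 in the jejunum from 10 UMIs, against 0.319 in the duodenum (log2 ratio -1.55). With 75, 52 and 86 cells, median depths of 23762, 17676.5 and 13660 UMIs and 1 library per segment, these differences have no replicate check. Their number was 20 at a limit of 20% mitochondrial UMIs and 25 with cell cycle genes in the clustering, and the part of depth in them was not tested.

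Enterocytes differed between segments in single S-phase genes far more than in the summed level. Mcm2 (chromosome 6, 88883474 to 88898780, minus strand), a helicase subunit, had 82 UMIs in duodenal, 1867 in jejunal and 67 in ileal enterocytes, or 0.0207, 0.429 and 0.0204 UMIs per 10000. The jejunum was thus 20.8-fold above the duodenum. In the 9 enterocyte clusters, which held from 11 to 851 jejunal cells, the jejunal level of Mcm2 lay between 0.145 and 0.617 and the duodenal level between 0 and 0.0358. In early enterocytes it was 0.0165, 0.0341 and 0.0216, and in ISC/proliferating cells the levels of jejunum and duodenum differed by less than 2-fold. Other helicase genes did not share the pattern, since Mcm6 was highest in duodenal enterocytes (0.0703, 0.0202 and 0.0235 UMIs per 10000) and Mcm3 had 4, 3 and 18 UMIs.

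Rrm2 (chromosome 12, 24708241 to 24714146, plus strand) had 415, 12 and 20 UMIs in the enterocytes of duodenum, jejunum and ileum, or 0.105, 0.00276 and 0.00610 UMIs per 10000. Early enterocytes were also highest in the duodenum, with 0.0940, 0.00631 and 0.00514 UMIs per 10000. The duodenal level lay between 0.0509 and 0.257 in the 9 enterocyte clusters, and the jejunal level at or below 0.00819. The licensing factor Cdc6 had 53, 214 and 89 UMIs in the 3 segments, which gave 3.68-fold more in the jejunum than in the duodenum. Neither Mcm2 nor Rrm2 overlaps another annotated gene.

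**Figure D5:**
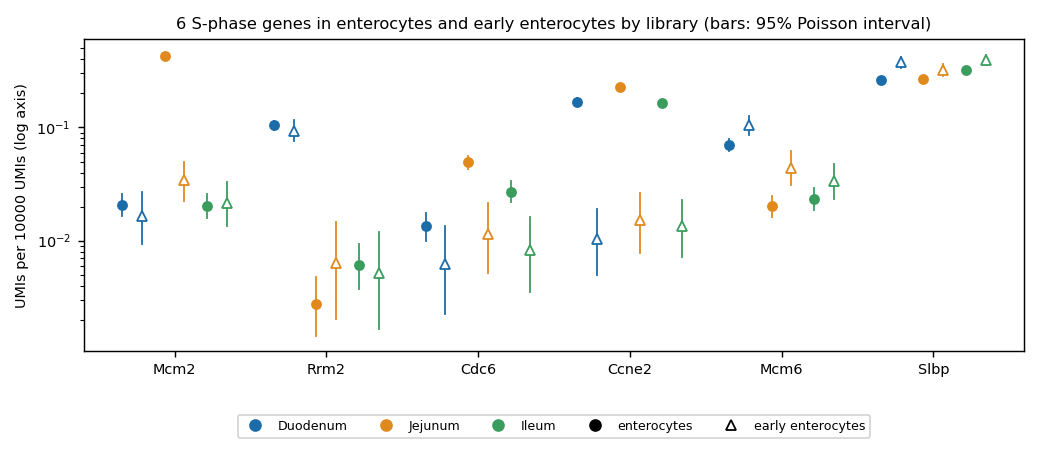
Levels of 6 S-phase genes in enterocytes (filled circles) and early enterocytes (open triangles) by library, in UMIs per 10000 UMIs on a log axis with 95% Poisson intervals. Mcm2 stands out in jejunal enterocytes at 0.429, Rrm2 in both classes of the duodenum, and Slbp is level across the libraries.

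G2/M members were highest in ileal enterocytes, with a summed level of 0.388 UMIs per 10000, against 0.222 in the duodenum and 0.211 in the jejunum. Of 21 G2/M members with enough UMIs, 9 were past 2-fold higher and 1 lower in the ileum than in the duodenum, and 7 of 18 were past 2-fold higher than in the jejunum, beside 15.8% higher and 17.4% lower (duodenum) and 14.6% and 6.52% (jejunum) among all genes. Between jejunum and duodenum, 2 of 17 S-phase members were past 2-fold higher and 5 lower, beside 6.93% and 14.9%. Ileal enterocytes had a median of 6344.5 UMIs and 12.2% mitochondrial UMIs, against 11997 and 28.9% in the duodenum and 12041.5 and 29.0% in the jejunum, and the part of these values in the difference was not tested.

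In early enterocytes 2 of 19 G2/M members compared were past 2-fold higher in the ileum than in the duodenum, and 5 of 17 S-phase members were lower, beside 10.5% higher and 7.39% lower among all genes. Relative to the jejunum, 7 of 15 G2/M members and 1 of 12 S-phase members were higher in the ileum, beside 9.85% and 4.96% in the 2 directions, among them Cdc20 with 61 against 4 UMIs and Cdk1 with 29 against 2 UMIs. Between jejunum and duodenum 1 of 17 S-phase members was higher and 6 lower, and 6 of 14 G2/M members were lower, beside 3.69% and 5.17%. G2/M members of early enterocytes were thus lowest in the jejunum.

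The genes that control entry into the cycle were described from lists beside the members. All 6 G1 cyclins and kinases were higher in ISC/proliferating cells than in enterocytes, with log2 fold changes of 6.74 for Ccnd1, 6.30 for Ccnd2, 5.14 for Cdk6, 5.03 for Cdk4, 3.03 for Cdk2 and 0.73 for Ccnd3 (edgeR adjusted p = 0.0366). Of all genes tested between these 2 classes, 28.4% were called higher and 30.7% lower. Ccnd2 (cyclin D2) had its level at 3.52 UMIs per 10000 in ISC/proliferating cells, 4.62 in T cells, 2.04 in goblet cells and 0.0263 in enterocytes. All 6 were also called higher in goblet cells than in enterocytes, beside 17.0% of all genes. Of the 7 inhibitors of cyclin-dependent kinases, Cdkn1a (p21) was lower in ISC/proliferating cells than in enterocytes (0.402 against 2.89 UMIs per 10000, log2 fold change -3.67, standard error 0.37), as were Cdkn2b (-2.62) and Cdkn1c (-2.09), while Cdkn2c was higher (2.50). Cdkn1b and Cdkn2d were not called, with log2 fold changes of -0.40 and 0.24, and Cdkn2a, with 2 UMIs in ISC/proliferating cells, was not tested. Cdkn1c (p57) stood at 5.57 UMIs per 10000 in tuft cells (log2 fold change 5.86 over enterocytes, standard error 0.52), and tuft cells also had the highest Cdk2 level of the classes named here, 0.790 against 0.0222 in enterocytes (log2 fold change 4.43).

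Of 14 E2F, pocket protein, Myb and Fox regulators, 9 were higher in ISC/proliferating cells (E2f1, E2f2, E2f4, E2f6, E2f7, E2f8, Mybl2, Foxm1 and Tfdp1), 3 lower (E2f3, Rb1 and Rbl2) and 2 not called (E2f5 and Rbl1), beside 28.4% higher and 30.7% lower among all genes. The largest log2 fold changes were those of Foxm1, a forkhead factor of G2/M genes, with 6.68 and of E2f7, a repressor, with 6.57, and the retinoblastoma gene Rb1 was lower (-2.19). Tfdp1, the partner of the E2F factors, E2f4 and E2f2 had the highest levels of the list, with log2 fold changes of 2.56, 0.82 and 2.80. All 25 tested genes of a further S-phase list of 26 were higher, led in level by Nasp, a histone chaperone, with a log2 fold change of 3.24, Cdca7 with 5.36 and Mrpl36 with 2.16. Of 30 further G2/M genes, 27 were higher and 1, Gas2l3, lower (-1.61). Those with the highest levels in the class were Hmgb2, a chromatin protein (log2 fold change 4.35), Tubb4b, a tubulin that was not called (-0.47), and Tmpo, a lamina protein (2.91).

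Outside these lists, the genes whose log2 level over the 34 sums of class and library correlated most with the S-phase level were Topbp1 (r = 0.94), Emg1, Selenoh, Dtymk, Cdca7l, Nrm, Plk4, Lmnb1, Lsm5 and Snrpd1, among 11755 genes. With the G2/M level they included Ncaph (r = 0.90), Lmnb1, Aspm, Dbf4, Hist1h2ap, Nrm, Knstrn, Plk4 and Larp7. Lmnb1, Nrm and Plk4 were in both groups. The sums share libraries and differ in depth, from 72447 UMIs (duodenal macrophages/monocytes) to 43478721 UMIs (jejunal enterocytes), so these values are a description.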

How the data were processed

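Epithelial and intraepithelial immune cells of 3 intestinal segments were sequenced by the authors as 10x Genomics 3′ libraries and aligned and counted with Cell Ranger 3.0.2 on mm10 (GRCm38), per the labels. The deposited values are raw UMI counts per gene and barcode. The study's limits were applied, namely 800 to 50000 UMIs per cell, 200 to 6000 genes and no more than 40% mitochondrial UMIs, and doublets were not removed (Scrublet called 0, 0 and 146 cells). Cells were clustered with Seurat 5.3.0 without cell cycle genes and named from fixed markers, since no cell annotation was used here. Counts were summed by class and library (at least 10 cells) and tested with edgeR 4.0.16 (quasi-likelihood test, filterByExpr, TMM, class and library as terms, all classes in 1 fit, two-sided, Benjamini-Hochberg over all genes, threshold 0.05). DESeq2 1.42.0 was an alternative. Levels carry exact Poisson and shares exact binomial 95% intervals, and where no UMI was seen 3 counts were taken as the limit. Libraries held 98518847, 87656078 and 78074516 UMIs over all barcodes. Comparisons of segments used 2-fold as the bound, without a test. Scripts were tested on simulated data. There the edgeR test recovered from 6% (B against T cells) to 27% (early enterocytes against enterocytes) of genes changed by 1 on the log2 scale. Of genes changed by 2, it recovered from 52% to 76% in the same comparisons. A member that was not called may therefore still differ.

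The members and gene lists were chosen with earlier results of these data known. Any member may be named by its role. Full values were given for the 5 members of each phase with the highest level in ISC/proliferating cells, the 3 with the largest and the 3 with the smallest log2 fold change over enterocytes, and members called against their phase's majority. Of the other lists, the 3 genes with the highest level and all G1 cyclins and CDK inhibitors were named, and outside them the 10 genes most correlated with each phase. Some items under this rule are not reported here. Other names were chosen after their values were seen. Alternatives changed the clustering, class naming, filters, doublets, normalization, model and libraries.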

Additional observations from a re-analysis of the deposited data

Results flagged for a closer look

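Signal of the members was also present in barcodes that no comparison used. In the 202 barcodes with over 50000 UMIs or over 6000 genes, the S-phase level was 8.12 and the G2/M level 23.9 UMIs per 10000. These barcodes held 49.4% of the 58015 G2/M UMIs of the 3 matrices, against 45.1% in the 16686 kept cells, and 20.0% of the S-phase UMIs. In the 10109 barcodes with over 40% mitochondrial UMIs the levels were 0.796 and 0.450, and in the 1386 unnamed cells 1.49 and 0.881, respectively. The cells behind these barcodes were not identified, and the part of doublets in the first group was not tested.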

How the results depend on the processing

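Of 3251 values of called members under the alternatives, 2939 kept direction and call, 281 lost the call and 31 turned in sign. With cell cycle genes kept in the clustering, 40 members were higher in ISC/proliferating cells than in enterocytes, 38 in early enterocytes, 3 in goblet cells and 19 in T cells, 29 were lower in T cells than in ISC/proliferating cells, the S-phase and G2/M levels of ISC/proliferating cells (then 83 cells) were 11.2 and 4.83, and 25 differences between segments passed 2-fold. T cells against enterocytes then gave log2 fold changes of -0.10 for Rrm2, -0.45 for Ccnb1, -0.006 for Ccnb2, -0.35 for Bub1, -1.36 for Birc5, -0.15 for Ube2c and -1.51 for Hmmr. At resolution 1.2 early enterocytes had 24 higher members and the S-phase level was 16.3. With cells assigned singly, early enterocytes had 45, goblet cells 2 and tuft cells 11 higher members, the G2/M level was 17.3, and Mcm2 (0.14) and Cdc6 (0.33) in early enterocytes and Hells (0.049) in tuft cells turned in sign. At most 20% mitochondrial UMIs gave 26, 4 and 3 higher members in early enterocytes, goblet and tuft cells, levels of 16.1 and 16.9, and 20 segment differences. Goblet cells had 4 higher members without the library term, 3 when only the 2 classes were fitted and 1 without the 5% of cells with the highest Scrublet score, and T cells had 25 in the fit of 2 classes. Tuft cells had 11 without TMM and 11 with DESeq2, which moved the median of all genes from -0.13 to 0.47 and 0.36. Without the 10% of cells with most enterocyte markers the G2/M level was 21.8. Leaving out 1 library gave 47 to 49 (ISC/proliferating), 9 to 15 (early enterocytes), 2 to 6 (goblet), 28 to 39 (T cells against enterocytes), 30 to 44 (T cells against ISC/proliferating cells), 9 to 30 (B against T cells) and 3 to 6 (tuft) members, and levels of 15.0 to 16.9 and 19.6 to 22.4. The call of Ccne2 in ISC/proliferating cells was lost at resolution 1.2, with single assignment, at 20% mitochondrial UMIs, without the ileum, without TMM, without the library term and with DESeq2.

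Without the smaller B-cell cluster B cells against T cells gave 1 called member and log2 fold changes of -0.057 for Fen1, -0.23 for Top2a, -2.62 for Cdk1, -2.73 for Ccna2, -0.038 for Ccnb1, -0.45 for Ccnb2, -5.29 for Bub1, -1.31 for Bub1b, -0.34 for Aurkb, -0.995 for Plk1, -2.52 for Birc5, -0.21 for Cenpe, -0.94 for Cenpf, -0.22 for Ube2c, -1.67 for Nusap1, -0.37 for Tpx2, -0.74 for Kif11, -1.30 for Cdc20, -1.40 for Hmmr, -0.93 for Tacc3 and -0.79 for Cks2. Tuft comparisons, the fits without that cluster and the Scrublet score limit were added after seeing the data. Causes were not tested. Classes were paired within libraries by the library term of the fit. Depth limits members with few UMIs.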

Other observations

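The 202 large barcodes were sorted by the marker list with the highest level in each. The early enterocyte list led in 82 of them (S-phase level 7.998, G2/M level 32.2 UMIs per 10000), the ISC/proliferating list in 54 (14.0 and 34.1), the enterocyte list in 24 (G2/M level 9.76), the Paneth list in 15 (1.75) and the goblet list in 13 (9.84). Olfm4 and Lgr5 together stood at 10.17 UMIs per 10000 in the 202 barcodes and at 25.7 in the ISC/proliferating class.

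G2/M transcripts of some immune classes lay in few cells. In IgA B cells 9 cells held 87.3% of the G2/M UMIs, and the level without them was 0.158 UMIs per 10000. In the ileum this class stood at 4.13, against 0.184 in the duodenum and 0.126 in the jejunum. In dendritic cells 11 cells held 89.99% of the G2/M UMIs, and the level of the remaining cells was 0.695. The highest single cell reached 148 G2/M UMIs per 10000 in dendritic cells, 131 in T cells, 234 in B cells and 108 in ISC/proliferating cells.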
